A study of Mus musculus with 6 samples.

Results

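The genes followed here belong to the machinery that commits a cell to DNA replication: the D-type cyclins, their kinases, the retinoblastoma family, E2F factors and Myc. They were taken by symbol, Ccnd1, Ccnd2, Ccnd3, Cdk4, Cdk6, Rb1, Rbl1, E2f1, E2f3 and Myc, and all 10 were among the 19179 genes listed for 6 libraries. The libraries came from 4T1, a mouse mammary carcinoma line of the BALB/C strain that spreads from the mammary gland to distant organs. Cells were seeded singly in 96-well plates and grown for 14 days in complete RPMI-1640, and neither group received any further agent named in the labels. Of the libraries, 3 came from clones with the tissue label breast cancer stem cell (stem-labelled clones) and 3 from clones with the tissue label breast cancer cell (other clones). The labels give neither the criterion that put a clone in its group nor the number of clones in 1 library. They speak of 10 clones of each kind and of 3 independent experiments without saying which library came from which experiment, so the p-values measure the spread between these libraries.

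In the textbook scheme, growth signals raise D-type cyclins, which bind CDK4 or CDK6, and the paired kinase phosphorylates RB1 and its relatives RBL1 and RBL2. Phosphorylated pocket proteins let go of E2F factors, which then switch on genes for DNA replication, with cyclin E and CDK2 acting next. MYC, a transcription factor that dimerizes with MAX, feeds into the same step by raising growth genes and Cdk4. In mammary epithelium cyclin D1 is the D-type cyclin best known for its role in lobule growth and in tumours.

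Levels are the authors' RPKM, reads scaled by gene length and by a library total. A change is the difference in mean log2(RPKM + 1), stem-labelled clones minus other clones, given with its SE. The test was limma on the 10097 genes with at least 1 RPKM in at least 3 libraries, and a gene was called changed at a Benjamini-Hochberg adjusted p under 0.05. Stem-labelled libraries held 21196572 to 22838870 reads in genes, against 15357608 to 16830762 for the other clones. These were 0.658 to 0.757 of the totals implied by the unit for stem-labelled clones, against 1.23 to 1.53 for the other clones. Of all genes tested, 55.2% were called, 29.9% as higher and 25.4% as lower among stem-labelled clones, with a median change of 0.11. That median was 0.86 when values were rescaled to the reads summed over genes, and 0.07 once trends with length and GC were taken out (the length and GC correction). Among genes of the shortest decile 5.24% were called higher, and among those of the longest 59.6%. Where the call of a gene is given below, its call on these 2 alternative scales is therefore added wherever it differs. How much of any change below moved with these library features was not tested. Of 8 epithelial markers 7 were tested, with 1 higher (Cdh1) and 4 lower. After the correction 1 was higher and 2 lower, where 25.9% and 22% of all genes were so called. Krt18 and Cldn3 did not pass there (limma adjusted p = 0.0675 and 0.0830). On rescaling 2 were higher and 4 lower, where 58.7% and 12.3% of all genes were so called. The summed level of the epithelial markers was 935 to 1457 RPKM in stem-labelled libraries, against 2137 to 3817 RPKM for the other clones. Epcam was at 55.2 and 56.2 RPKM in the group means, and was called higher only on rescaling (0.90, limma adjusted p = 0.00575). Cldn7 was at 0.0180 to 0.175 RPKM in stem-labelled libraries and at 0.560, 0.536 and 29.0 RPKM in the other clones, where replicate 3 stands apart. Fibroblast markers summed to 1.68 to 3.38 and 0.431 to 1.02 RPKM, almost all of it Pdgfra, and endothelial markers to at most 0.0988 and 0.116 RPKM. The leukocyte markers summed to 21.2 to 61.7 and 10.9 to 37.4 RPKM, nearly all of it Cd68 (29.0 ± 14.7 and 16.4 ± 11.9 RPKM) and Cd14 (13.2 ± 7.17 and 7.85 ± 3.02 RPKM), with overlapping groups. Neither was called on the deposited scale, but both were called higher after the correction (limma adjusted p = 0.0332 and 0.0289) and on rescaling (0.0079 and 0.00244). Ptprc and Csf1r, defining leukocyte and macrophage markers, had group means under 0.01 RPKM.

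Of the 9 members tested, 4 were called higher (Ccnd1, Ccnd2, Cdk6 and E2f3), 2 lower (Ccnd3 and E2f1), and 3 did not pass (Cdk4, Rbl1 and Myc). Rb1 lay under the filter. Since 55.2% of all genes were called, 6 of 9 is near the background and does not set the members apart. After the length and GC correction 0 members were called higher and 3 lower, where 47.9% of all genes were called, 25.9% higher and 22% lower. On rescaling 6 were called higher and 2 lower, where 71% of all genes were called, 58.7% higher and 12.3% lower. The levels of 6 members did not overlap between groups, against 63.5% of all genes tested. Directions differed within families on the deposited scale. Ccnd1 and Ccnd2 were called higher and Ccnd3 lower, and E2f3 was called higher and E2f1 lower, while after the correction the calls of Ccnd3 and E2f1 held and those of Ccnd1, Ccnd2 and E2f3 did not. Since these are bulk samples, fewer cells in which a gene is active and less RNA per cell cannot be told apart.

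**Figure D1:**
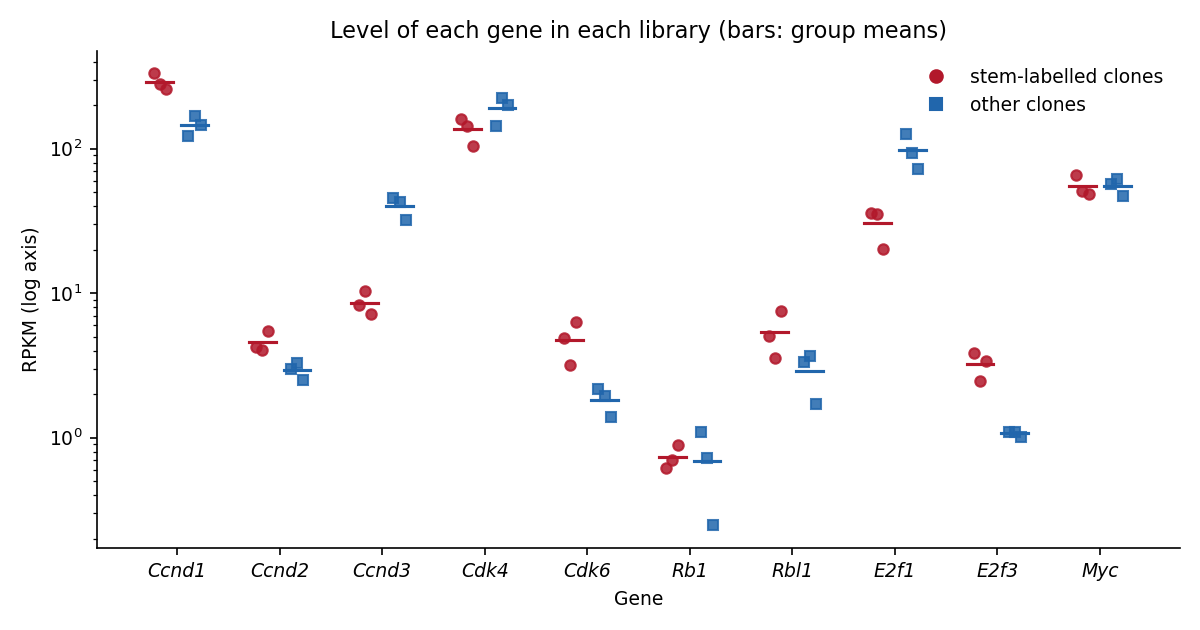
RPKM of the 10 genes in each library on a log axis, with stem-labelled clones as red circles left of other clones as blue squares and bars at the group means. Ccnd3 and E2f1 lie lower in all 3 stem-labelled libraries, at 7.13 to 10.4 and 20.2 to 35.9 RPKM, while Ccnd1, Ccnd2, Cdk6 and E2f3 lie higher there and Myc overlaps.

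Ccnd3 (ENSMUSG00000034165, GRCm38 chromosome 17, 47505051 to 47599691) encodes cyclin D3 and had the largest change of the members on the deposited and corrected scales, though not on rescaling, where its change was -1.21 and that of Ccnd1 1.92. It stood at 8.30, 10.4 and 7.13 RPKM in the stem-labelled libraries, against 45.7, 42.4 and 31.9 RPKM in the others. The highest stem-labelled value lay well below the lowest value of the other clones. The means were 8.59 ± 1.63 and 40.0 ± 7.19 RPKM (SD, n = 3 each), and the level in the other clones was 4.65 times that in the stem-labelled clones. Ccnd3 changed by -2.09 ± 0.23 (adjusted p = 0.000167), and it was called lower under each of the 15 alternatives run, with changes from -2.42 to -1.21. At 8775 bases it belongs to the longest decile of genes, of which only 4.76% were called lower. Of its exon bases, 4.11% overlap Bysl on the opposite strand, a ribosome assembly gene at 13.9 ± 3.05 and 28.5 ± 2.34 RPKM, and the strand used in counting is not stated.

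Ccnd1 (ENSMUSG00000070348, chromosome 7, 144929931 to 144939925) encodes cyclin D1 and went the opposite way. It stood at 332, 278 and 257 RPKM in the stem-labelled libraries, against 122, 168 and 147 RPKM in the others. No library of one group reached the range of the other. The means were 289 ± 38.8 and 146 ± 22.7 RPKM (SD, n = 3 each), a ratio of 1.98 and a change of 0.99 ± 0.26 (adjusted p = 0.0102). The change was 0.38 after the length and GC correction (adjusted p = 0.145) and 0.88 when stem-labelled replicate 1 was left out (adjusted p = 0.0525), and neither passed. Ccnd1 shares 23.4% of its exon bases with LTO1 on the opposite strand, whose level was only 2.07 ± 0.225 and 1.20 ± 0.114 RPKM.

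Ccnd2 (ENSMUSG00000000184, chromosome 6, 127125162 to 127152193), the cyclin D2 gene, was the lowest of the D-type cyclins in every library. It had 4.24, 4.06 and 5.46 RPKM in the stem-labelled libraries, against 2.98, 3.30 and 2.50 RPKM in the others. The groups did not overlap, but the change of 0.51 ± 0.19 passed only narrowly (adjusted p = 0.04995). The call was lost without any single library but replicate 2 of the other clones, and the sign turned after the length and GC correction (-0.38, adjusted p = 0.0692).

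The makeup of the D-type cyclin message differed between the kinds of clone. Ccnd1 made up 96.4%, 95.1% and 95.3% of the summed RPKM of the 3 genes in the stem-labelled libraries, against 71.6%, 78.6% and 81.0% in the others. Ccnd3 made up 2.41%, 3.54% and 2.65%, against 26.7%, 19.9% and 17.6%. The share of Ccnd2 was 1.55 ± 0.422% and 1.55 ± 0.180%. The ratio of Ccnd1 to the sum of Ccnd2 and Ccnd3 was 26.5, 19.3 and 20.4 in the stem-labelled libraries, against 2.52, 3.67 and 4.27 in the others. A ratio within a library is free of the scaling between libraries, and this one changed by 2.68 on the log2 scale, or 2.52 after the length and GC correction. The sum of the 3 cyclins was 302 ± 38.5 RPKM in the stem-labelled and 189 ± 22.2 RPKM in the other clones, so most cyclin D message was Ccnd1 in both.

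Cdk4 (ENSMUSG00000006728, chromosome 10, 127063534 to 127067920), the partner kinase of the D-type cyclins that is best known in epithelium, was among the most abundant members. It stood at 160, 143 and 105 RPKM in the stem-labelled libraries, against 144, 224 and 202 RPKM in the others. The groups overlapped, and the change of -0.48 ± 0.29 did not pass (adjusted p = 0.181, 95% interval -1.12 to 0.17). It was called lower after the length and GC correction (-0.66, adjusted p = 0.0327), while on rescaling to summed reads the sign turned (0.46, adjusted p = 0.171). Cdk4 shares 19.7% of its exon bases with Tspan31 on the opposite strand, which lay at 44.7 ± 9.06 and 36.0 ± 7.32 RPKM.

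Cdk6 (ENSMUSG00000040274, chromosome 5, 3341485 to 3531008), the sister kinase, was far less abundant and higher in the stem-labelled clones. It had 4.87, 3.17 and 6.29 RPKM in the stem-labelled libraries, against 2.17, 1.94 and 1.40 RPKM in the others. All 3 stem-labelled libraries lay above the other clones. The change was 1.001 ± 0.24 (adjusted p = 0.00655), but with 13989 bases Cdk6 is the longest member, and after the length and GC correction it stood at 0.15 (adjusted p = 0.505). In its length decile 59.6% of genes were called higher. The ratio of Cdk4 to Cdk6 was 32.9, 45.1 and 16.6 in the stem-labelled libraries, against 66.5, 116 and 144 in the others, a difference of -1.83 on the log2 scale that was -1.16 after the correction. Summed over both kinases, the level was 141 ± 27.5 and 192 ± 41.3 RPKM, with overlapping groups.

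Promoter letters known for MYC or E2F binding were searched in 8 windows, all those of the members with entries. The windows are the 250 bases before the transcription start, from RefSeq on GRCm38.p6, and 6 of the 10 members had entries. Only the windows of Cdk4, Rbl1 and E2f3, which hold matches, are printed. These genes are textbook targets of the factors whose own levels are given here. Capitals mark CACGTG, the E-box bound by MYC with MAX, and the E2F letters TTTCGCGC, TTTGGCGC, TTTCCCGC or TTTGCCGC, each searched on both strands. No E2F match overlapped an E-box. The Cdk4 window is chr10:127063285-127063534 on the plus strand and the Rbl1 window chr2:157204535-157204784 on the minus strand. The E2f3 windows, both on the minus strand, are chr13:29986064-29986313 before the upstream start and chr13:29984392-29984641 before the downstream start.
Cdk4: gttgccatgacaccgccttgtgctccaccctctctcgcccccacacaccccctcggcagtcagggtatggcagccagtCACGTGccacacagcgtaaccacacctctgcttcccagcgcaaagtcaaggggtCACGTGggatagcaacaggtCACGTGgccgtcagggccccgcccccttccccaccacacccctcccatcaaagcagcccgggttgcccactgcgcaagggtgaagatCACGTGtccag
Rbl1: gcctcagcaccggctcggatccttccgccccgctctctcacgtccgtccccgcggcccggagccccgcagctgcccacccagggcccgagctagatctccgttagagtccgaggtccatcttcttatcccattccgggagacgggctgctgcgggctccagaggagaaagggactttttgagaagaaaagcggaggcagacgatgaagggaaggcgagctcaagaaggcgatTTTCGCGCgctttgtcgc
E2f3 upstream start: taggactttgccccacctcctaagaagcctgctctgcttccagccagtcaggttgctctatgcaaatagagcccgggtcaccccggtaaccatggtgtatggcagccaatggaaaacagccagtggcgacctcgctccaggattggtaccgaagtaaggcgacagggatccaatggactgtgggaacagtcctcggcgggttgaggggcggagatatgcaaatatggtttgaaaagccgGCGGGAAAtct
E2f3 downstream start: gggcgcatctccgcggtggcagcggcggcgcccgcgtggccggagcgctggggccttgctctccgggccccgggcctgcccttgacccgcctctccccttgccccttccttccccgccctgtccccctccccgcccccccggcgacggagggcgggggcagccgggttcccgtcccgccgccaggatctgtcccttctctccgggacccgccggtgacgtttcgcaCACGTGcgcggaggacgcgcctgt

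The Cdk4 window held 4 E-boxes, beginning 172, 118, 98 and 11 bases before the start. Of 32851 windows in the table, 6.02% held at least 1 E-box and 0.0213%, or 7 windows, held at least 4. Rbl1 held 1 E2F match beginning 18 bases before its start and E2f3 held 1 beginning 11 bases before its upstream start, where 1.86% of all windows held any. The downstream E2f3 window held 1 E-box. The deposited gene model of E2f3 ends at 29985668, short of the upstream start, and the values do not separate transcripts from the 2 starts. Cdk6, whose window is not printed, had 1 E-box, and both Ccnd3 windows had neither motif. Every printed gene holds a match, so the shares of all windows are given for scale and test nothing. The E2f1 entry lies wholly within annotated E2f1 exon sequence and is not shown. These are matches of letters and carry no measurement of binding.

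Among the pocket proteins, which hold E2F factors in check, Rb1 (ENSMUSG00000022105, chromosome 14, 73183673 to 73325822) had the lowest level of all members in both groups. It stood at 0.613, 0.701 and 0.888 RPKM in the stem-labelled libraries, against 1.09, 0.721 and 0.248 RPKM in the others. The groups overlapped, and replicate 3 of the other clones was the lowest library. These values rest on 405 and 147 reads. Rb1 missed the filter, and with no filter on low values its change was 0.07 ± 0.21 (adjusted p = 0.818, 95% interval -0.43 to 0.57). The Rb1 exons overlap Rcbtb2 and Lpar6 on the opposite strand over 8.11% and 6.78% of their bases. Rcbtb2 was at 2.73 ± 0.151 and 1.10 ± 0.226 RPKM, above Rb1 itself.

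Rbl1 (ENSMUSG00000027641, chromosome 2, 157145893 to 157204534), which encodes the pocket protein p107, stood at 5.07, 3.58 and 7.57 RPKM in the stem-labelled libraries, against 3.35, 3.67 and 1.71 RPKM in the others. One stem-labelled library lay within the range of the other clones. The change of 0.71 ± 0.29 did not pass (adjusted p = 0.0644, 95% interval 0.05 to 1.36). It passed when stem-labelled replicate 2 was left out (0.92, adjusted p = 0.0338) and when replicate 2 of the other clones was (0.85, adjusted p = 0.0444), the libraries that overlapped. It also passed with upper-quartile scaling (0.91, adjusted p = 0.0329) and on rescaling to summed reads (1.43, adjusted p = 0.00165). The ratio of Rbl1 to Rb1 overlapped between the groups, at 5.10 to 8.53 for stem-labelled and 3.08 to 6.89 for other clones. Rbl2, the p130 gene and the family's member best known from resting cells, rose by 1.01 ± 0.19 (adjusted p = 0.00165), at 2.38 ± 0.474 and 0.673 ± 0.153 RPKM, but stood at 0.27 after the length and GC correction (adjusted p = 0.158). It met the filter only through the stem-labelled libraries, where it is high, so its test is not independent of that difference.

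Of the activator E2Fs among the members, E2f1 was called lower and E2f3 higher on the deposited scale. E2f1 (ENSMUSG00000027490, chromosome 2, 154559407 to 154569892) stood at 35.9, 35.2 and 20.2 RPKM in the stem-labelled libraries, against 127, 93.7 and 72.0 RPKM in the others. Every stem-labelled library lay below every other library. The means were 30.5 ± 8.90 and 97.5 ± 27.6 RPKM (SD, n = 3 each), so the level in the other clones was 3.20 times as high. E2f1 changed by -1.65 ± 0.31 (adjusted p = 0.0017) and was called lower under all 15 alternatives, with changes from -1.85 to -0.73. Of genes in its length decile, 20.9% were called lower.

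E2f3 (ENSMUSG00000016477, chromosome 13, 29906575 to 29985668) had 3.84, 2.45 and 3.38 RPKM in the stem-labelled libraries, against 1.10, 1.09 and 1.02 RPKM in the others. The 3 values of the other clones lay close together and well below all stem-labelled values. The means were 3.22 ± 0.708 and 1.07 ± 0.0472 RPKM, a ratio of 3.01, and the change was 1.01 ± 0.19 (adjusted p = 0.00187). It rests on 1401 and 177 reads. After the length and GC correction the change was 0.40 and missed the threshold (adjusted p = 0.0860). The ratio of E2f1 to E2f3 within a library was 9.37, 14.4 and 5.98 in the stem-labelled libraries, against 115, 86.0 and 71.0 in the others. That is a log2 difference of -3.26, or -2.18 after the correction. E2f1 stayed the more abundant of the pair in every library.

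**Figure D2:**
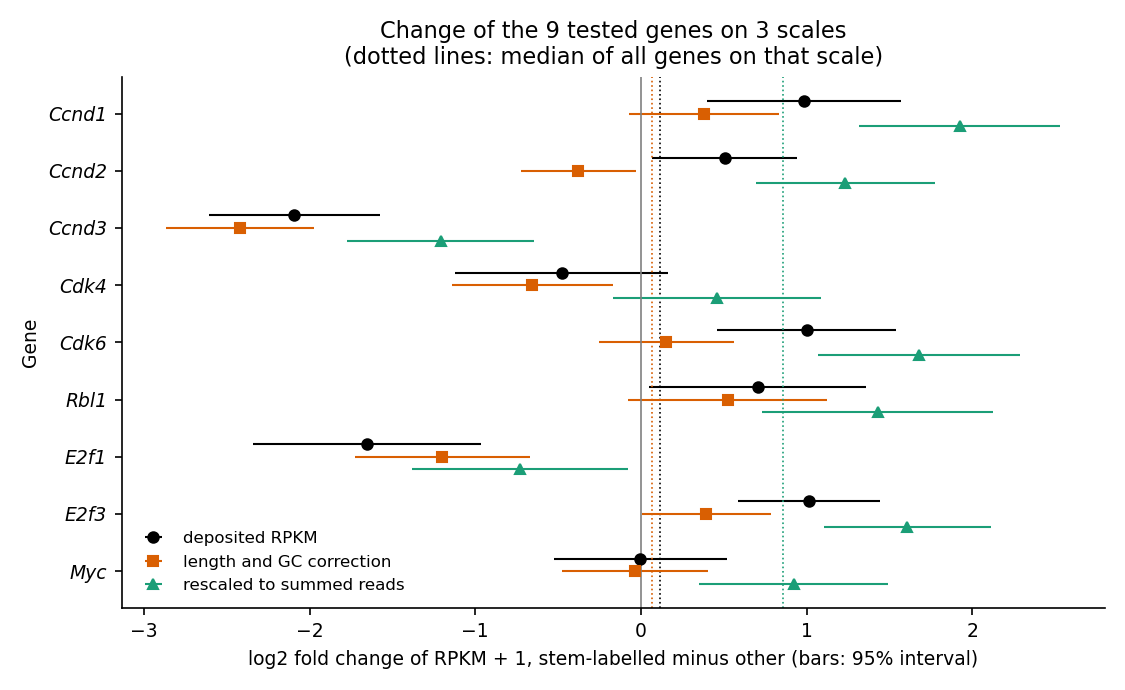
Changes in log2(RPKM + 1), stem-labelled clones minus other clones, of the 9 tested genes with 95% intervals, on the deposited scale, after the length and GC correction and after rescaling to summed reads, with dotted lines at the median of all genes on each scale (0.11, 0.07 and 0.86). Ccnd3 and E2f1 stay below 0 on all 3 scales, whereas Ccnd1, Cdk6 and E2f3 come nearer to 0 after the correction and Ccnd2 crosses it.

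Myc (ENSMUSG00000022346, chromosome 15, 61985341 to 61990374) had nearly the same level in both kinds of clone on the deposited scale. It stood at 65.8, 51.2 and 48.8 RPKM in the stem-labelled libraries, against 56.8, 61.8 and 47.2 RPKM in the others. The means were 55.3 ± 9.23 and 55.3 ± 7.43 RPKM, and the change was -0.00 ± 0.23 (adjusted p = 0.992, 95% interval -0.53 to 0.52). On rescaling to summed reads it was called higher (0.92, adjusted p = 0.00726), where the median of all genes was 0.86. Its obligate partner Max differed more, with 27.0, 27.1 and 25.6 RPKM in the stem-labelled libraries and 12.6, 14.7 and 13.1 RPKM in the others (0.93 ± 0.19, adjusted p = 0.00288, and 1.08 after the correction). The ratio of Myc to Max was 2.44, 1.89 and 1.91 in the stem-labelled libraries, against 4.53, 4.19 and 3.61 in the others. Myc shared no exon sequence with another annotated gene, and its relatives Mycn and Mycl lay under the filter.

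In all 6 within-library ratios were compared: Ccnd1 to the sum of Ccnd2 and Ccnd3, Cdk4 to Cdk6, Rbl1 to Rb1, E2f1 to E2f3, E2f1 to Rb1, and Myc to Max. All but Rbl1 to Rb1 separated the groups completely. With 3 libraries against 3, a two-sided exact permutation test cannot give a p below 0.1, which these 5 ratios reached (0.12 after Benjamini-Hochberg adjustment over the 6), and Rbl1 to Rb1 had an exact p of 0.2. The ratio of E2f1 to Rb1 was 58.6, 50.2 and 22.7 in the stem-labelled libraries, against 117, 130 and 291 in the others. The highest of these, in replicate 3 of the other clones, goes with that library's low Rb1 value.

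**Figure D3:**
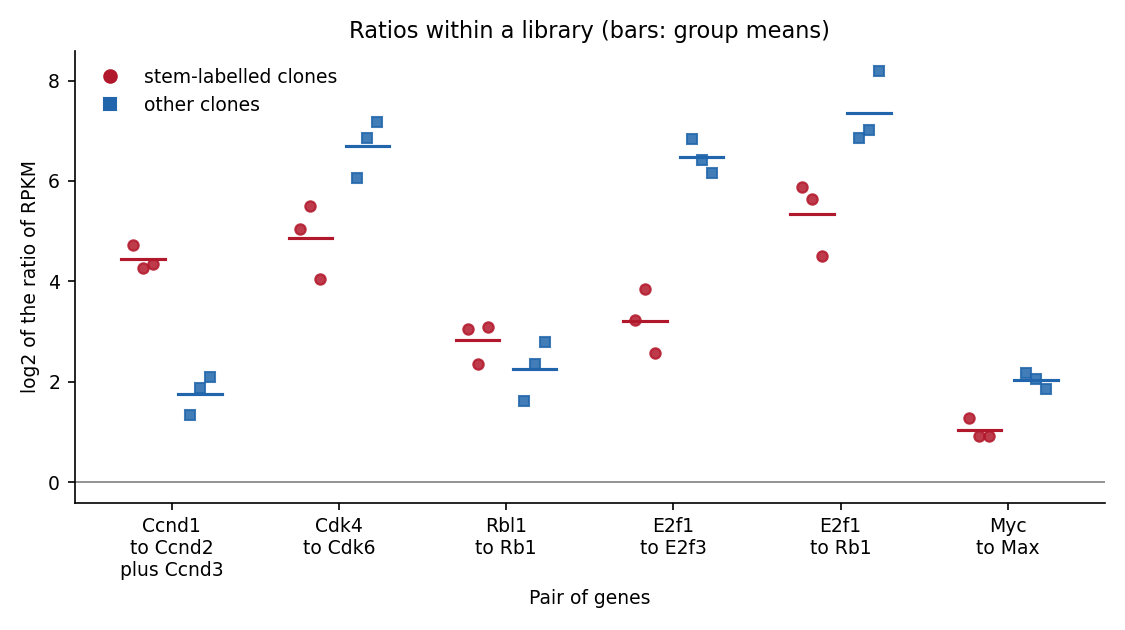
log2 of the ratio of RPKM of each pair of genes within each library, with stem-labelled clones as red circles left of other clones as blue squares and bars at the group means. The Ccnd1 ratio lies higher in the stem-labelled libraries (means 4.45 and 1.77), the ratios of E2f1 to E2f3 lie lower there (3.22 and 6.47), and Rbl1 to Rb1 overlaps.

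In order of level per length, the stem-labelled clones ran Ccnd1, Cdk4, Myc, E2f1, Ccnd3, Rbl1, Cdk6, Ccnd2, E2f3 and Rb1. The other clones ran Cdk4, Ccnd1, E2f1, Myc, Ccnd3, Ccnd2, Rbl1, Cdk6, E2f3 and Rb1. In the stem-labelled clones the ranges of Ccnd3 and Rbl1, of Rbl1 and Cdk6, and of Cdk6 and Ccnd2 overlapped, and those of the remaining neighbours did not. In the other clones the ranges of Cdk4 and Ccnd1, Ccnd1 and E2f1, Ccnd2 and Rbl1, Rbl1 and Cdk6, and E2f3 and Rb1 overlapped, and those of the remaining neighbours did not. Ccnd1 led Cdk4 in each stem-labelled library and trailed it in each library of the other clones.

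The rest of the G1 kinase machinery had calls in both directions on the deposited scale. Among 10 other tested G1 cyclins and kinases, the test called 2 higher and 2 lower and left 6 uncalled, with a median change of 0.01 against 0.11 for all genes, of which 29.9% were called higher and 25.4% lower. The counts were 1 higher and 2 lower after the correction, with 25.9% and 22% of all genes so called. On rescaling they were 6 higher and 0 lower, with 58.7% and 12.3% of all genes. Cdc25a, the phosphatase that activates CDK2, rose by 1.20 ± 0.21 (adjusted p = 0.00121), at 5.04 ± 0.729 and 1.64 ± 0.465 RPKM, and missed the threshold after the correction (0.46, adjusted p = 0.0809). Cdk2, the partner of cyclin E, had 23.7, 19.5 and 17.01 RPKM in the stem-labelled libraries and 8.18, 14.0 and 11.6 RPKM in the others (0.80 ± 0.24, adjusted p = 0.0199). Its call was lost when stem-labelled replicate 1 or 2, or replicate 1 of the other clones, was left out (adjusted p = 0.0806, 0.0528 and 0.0602). The cyclin E genes differed from each other: Ccne1 was at 5.48 ± 1.37 and 4.65 ± 0.872 RPKM and did not pass (adjusted p = 0.514), though it did on rescaling (0.96, adjusted p = 0.00301). Ccne2 had 1.78, 1.27 and 2.35 RPKM in the stem-labelled libraries and 6.27, 2.58 and 14.6 RPKM in the others, a change of -1.42 ± 0.45 (adjusted p = 0.0228) that was -0.30 after the correction (adjusted p = 0.467) and -0.70 on rescaling (adjusted p = 0.115). Its call was also lost when stem-labelled replicate 2 or replicate 1 of the other clones was left out (adjusted p = 0.0642 and 0.0559), and leaving out replicate 3 of the other clones gave -0.88.

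Of 14 other pocket protein, E2F and DREAM complex genes, 6 were called higher, 2 lower and 6 not (median 0.54). Of all genes, 29.9% were called higher and 25.4% lower. Among the 6 called higher, Rbl2 and Lin52 met the filter only through the stem-labelled libraries, where they are high. Their calls are not independent of that difference. The counts were 4 higher and 1 lower after the correction, with 25.9% and 22% of all genes so called, and 11 higher and 0 lower on rescaling, with 58.7% and 12.3%. E2f6, a repressor E2F that acts without pocket proteins, stood at 7.38 ± 0.594 and 2.61 ± 0.292 RPKM (1.22 ± 0.18, adjusted p = 0.00061). Tfdp1, whose product DP1 dimerizes with E2F proteins, stood at 78.0, 68.5 and 75.2 RPKM in the stem-labelled libraries, against 26.7, 35.3 and 26.2 RPKM in the others. It rose by 1.31 ± 0.22 (adjusted p = 0.00107), or 1.75 after the correction. Of the 50-base stretches of its longest transcript, 24.2% also occur in transcripts of other genes. The atypical repressors E2f7 and E2f8 rose by 0.91 and 1.20, and stood at -0.06 and 0.49 after the correction, where neither passed. E2f4, the E2F that mostly works with p130 and p107, was at 57.4 ± 8.13 and 72.3 ± 21.2 RPKM and did not pass (adjusted p = 0.400). Lin37, a DREAM subunit, fell by 1.17 on the log2 scale, but lay at -0.08 after the correction (adjusted p = 0.767) and at -0.30 on rescaling (adjusted p = 0.317).

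Inhibitors of the G1 kinases showed large changes in both directions. Of the 4 tested, Cdkn2c and Cdkn1b rose, Cdkn1a fell and Cdkn2d did not pass (adjusted p = 0.0658), though limma-voom on recovered reads called it lower (-0.78, adjusted p = 0.0192). Of all genes, 29.9% were called higher and 25.4% lower. The symbols Cdkn2a and Cdkn2b were not among the genes listed for these libraries. Cdkn2c encodes p18, an inhibitor of CDK4 and CDK6, and stood at 107, 124 and 83.9 RPKM in the stem-labelled libraries, against 14.2, 15.4 and 20.1 RPKM in the others (2.59 ± 0.24, adjusted p = 0.000121). Cdkn1b, the p27 gene, stood at 16.7 ± 3.37 and 3.94 ± 0.178 RPKM (1.83 ± 0.21, adjusted p = 0.000182). Cdkn1a, the p21 gene, stood at 15.9 ± 2.16 and 118 ± 14.5 RPKM (-2.81 ± 0.22, adjusted p = 0.000109). All 3 kept their direction and call under the correction and on rescaling. After the correction 25.9% of all genes were called higher and 22% lower, and on rescaling 58.7% and 12.3%.

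Of 12 genes for the turnover of G1 cyclins and MYC, 4 rose, 2 fell and 6 did not pass (median 0.10). Of all genes, 29.9% were called higher and 25.4% lower. On the corrected scale 2 were called higher and 2 lower, with 25.9% and 22% of all genes so called. On the rescaled one 7 were called higher and 1 lower, with 58.7% and 12.3% of all genes. Gsk3b, the kinase that marks cyclin D1 and MYC for breakdown, stood at 4.13 ± 0.918 and 1.27 ± 0.125 RPKM (1.16 ± 0.20, adjusted p = 0.00107), or 0.33 after the correction (adjusted p = 0.1002). Ambra1, which directs the breakdown of D-type cyclins, rose by 0.94 ± 0.20 (adjusted p = 0.00354), or 0.52 after the correction (adjusted p = 0.0382).

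Of 8 tested partners and antagonists of MYC, 4 rose, Max among them, 2 fell and 2 did not pass (median 0.64, against 0.11 for all genes). Calls over all genes were 29.9% higher and 25.4% lower. After the correction the list median was -0.06, with 2 called higher and 2 lower, where all genes had 25.9% and 22%. On rescaling it was 1.36, with 6 higher and 1 lower, where the median of all genes was 0.86. On that scale 58.7% of all genes were called higher and 12.3% lower. Mnt, a MAX partner that represses MYC targets, stood at 16.6 ± 0.709 and 5.25 ± 1.33 RPKM (1.52 ± 0.22, adjusted p = 0.000474), or 1.79 after the correction. Mxd3, another MAX partner, stood at 21.2, 14.2 and 9.84 RPKM in the stem-labelled libraries, against 159, 91.2 and 71.1 RPKM in the others (-2.73 ± 0.35, adjusted p = 0.000326). Zbtb17, which encodes the MYC-binding factor MIZ1, changed by -1.37 ± 0.25 (adjusted p = 0.00154), and on rescaling by -0.50, where it did not pass (adjusted p = 0.108).

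Genes downstream of the factors were counted as well. Of 30 genes known as E2F targets, 9 rose, 7 fell and 14 did not pass, with a median of 0.29. These counts are near the shares of all genes, 29.9% called higher and 25.4% lower. After the correction 2 were higher and 7 lower, with 25.9% and 22% of all genes so called. On rescaling 22 were higher and 0 lower, with 58.7% and 12.3% of all genes. Uhrf1, a maintenance factor for DNA methylation, stood at 74.1 ± 16.9 and 29.9 ± 10.1 RPKM (1.31 ± 0.28, adjusted p = 0.00391). Transcripts of other genes hold 18.9% of the 50-base stretches of its longest transcript. The replication factors Mcm10 and Orc1 rose by 1.29 and 0.70, but missed the threshold after the correction (adjusted p = 0.0914 and 0.0596). Chek1, the replication checkpoint kinase, changed by -1.03 ± 0.24 (adjusted p = 0.00584), at 4.03 ± 1.35 and 9.12 ± 1.51 RPKM, but on rescaling by -0.23, where it did not pass (adjusted p = 0.496).

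Of 22 genes known as MYC targets, 0 rose, 10 fell and 12 did not pass, with a median of -0.65 that became 0.26 on rescaling, where 7 were called higher and 4 lower. After the length and GC correction 12 fell and 0 rose, with a median of -0.67. Of all genes, 25.4% were called lower on the deposited scale and 22% after the correction. On rescaling 58.7% of all genes were called higher and 12.3% lower. Bop1, a ribosome assembly factor, stood at 36.4, 30.0 and 23.0 RPKM in the stem-labelled libraries, against 184, 159 and 163 RPKM in the others (-2.48 ± 0.24, adjusted p = 0.000131). The serine hydroxymethyltransferase gene Shmt2 was at 87.5 ± 21.6 and 438 ± 26.0 RPKM and the spermidine synthase gene Srm at 85.9 ± 27.9 and 341 ± 14.2 RPKM. Shmt2 and Srm changed by -2.34 and -2.03, or by -1.65 and -0.76 after the correction, where both were still called lower. Npm1, which encodes nucleophosmin, stood at 139 ± 20.2 and 810 ± 364 RPKM. Odc1, the ornithine decarboxylase gene and a classic MYC target, was at 269 ± 61.9 and 275 ± 42.1 RPKM and did not pass (adjusted p = 0.910), whereas on rescaling it was called higher (0.90, adjusted p = 0.0199). Odc1 was singled out after its values were seen. Transcripts of other genes hold 40.9% of the 50-base stretches of the longest Npm1 transcript and 42.2% of those of Odc1. How reads from such stretches were counted is not stated.

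**Figure D4:**
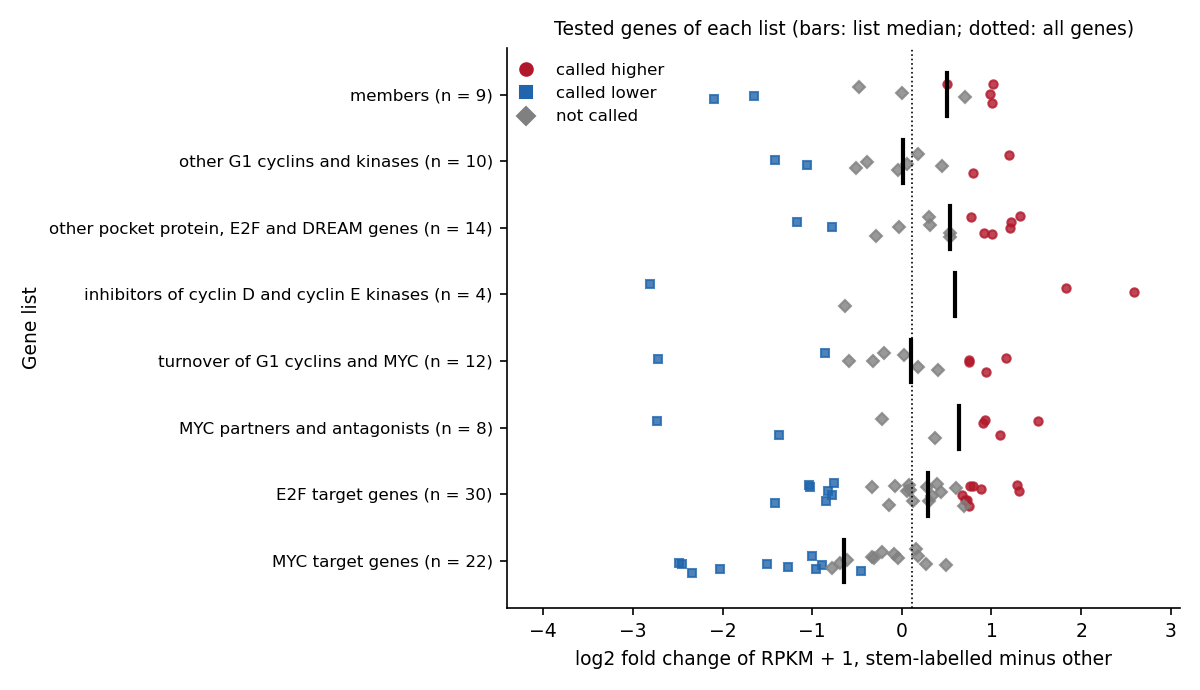
Changes in log2(RPKM + 1), stem-labelled clones minus other clones, of the tested genes of each list, marked as called higher, called lower or not called, with bars at list medians and a dotted line at the median of all genes (0.11). MYC target genes lie mostly below 0 (median -0.65), while the other lists spread to both sides.

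Over the 6 libraries, the genes whose log2 values followed E2f3 most closely were Lmtk2, Paxip1 and Znrf3, with Pearson correlations of 0.998, 0.997 and 0.997. Those closest to Ccnd3 were Maf1, Tmem40 and Pcsk4, with correlations of 0.999, 0.998 and 0.998. These correlations describe 6 points in 2 separate groups, so the difference between the groups makes up most of each. Znrf3, at 1.80 ± 0.347 and 0.472 ± 0.0417 RPKM, met the filter only through the stem-labelled libraries, where it is high. Its place here is not independent of that difference.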

How the data were processed

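Messenger RNA of 6 samples was sequenced with a standard Illumina protocol, per the labels' protocols. The authors deposited RPKM values, 1 file per library. The submitters' processing notes name Bowtie2 2.0.6, TopHat2 2.0.9 and mm9 without a role, and the counting program and strand are not given in the sources used here. The deposited positions matched GENCODE M21 (GRCm38) within 50 kb for 99.5% of identified genes, so positions are given on GRCm38. Each value times gene length was a whole multiple of a fixed step (tolerance 0.01), which returned the reads. At these depths 1 read in a kilobase of gene is worth 0.0311 to 0.0993 RPKM.

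Groups came from the tissue label and replicate numbers from the titles. limma 3.58.1 in R 4.3.3 was fitted with a variance trend to log2(RPKM + 1), and its two-sided p-values were adjusted over all 10097 genes tested. The correction subtracted natural splines (5 degrees of freedom each) of log2 length and GC content from each library. The test was checked on simulated data. The members, lists and alternatives were chosen with earlier results of these data known. Named genes were the members, Ccne1, Ccne2, Cdk2, Rbl2, E2f4, Tfdp1 and Max, the 4 smallest p of each pathway list and the 3 genes most correlated with the called members of largest increase and decrease. Of these Ccnc and 3 more are not reported here, while E2f7, E2f8, Odc1 and the overlapping genes were added after their values were seen.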

Additional observations from a re-analysis of the deposited data

How the results depend on the processing

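The calls of Ccnd3 and E2f1 held under all 15 alternatives. With the length and GC correction 3 members were called and 0 higher: Ccnd1 (0.38), Cdk6 (0.15) and E2f3 (0.40) missed the threshold, Ccnd2 turned to -0.38 and Cdk4 (-0.66) was called lower. The replicate block together with the correction gave the same changes, with 2 members called, 0 higher, and 33 list genes against 52. It called 4312 of all genes, 2327 of them higher. Correlations of deviations from the group means were -0.125, 0.0255 and -0.0848 for libraries of the same number, and 1 of the mixed pairs reached 0.186. With deviations taken within groups of 3 libraries, these values cannot decide whether same-numbered libraries shared an experiment. The replicate block alone called 5212 of all genes, left 5 members called and lost Ccnd2 (0.51, limma adjusted p = 0.102). Ccnd2 was also lost with no filter on low values (0.51, adjusted p = 0.0864) and with limma-voom on recovered reads (0.50, adjusted p = 0.0917).

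Rescaling to summed reads called 5926 genes higher and 1245 lower, turned Myc to 0.92 and called Rbl1 (1.43), as did upper-quartile scaling (0.91). A filter of mean RPKM at least 5 called 3477 genes, 1405 of them higher, and 3 members, 1 higher, since fewer genes were tested. Leaving out 1 library gave 2 to 5 members higher, 34 to 52 list genes called, and changes of 0.87 to 1.09 for Ccnd1, 0.40 to 0.57 for Ccnd2 and 0.46 to 0.92 for Rbl1. Of all genes, these fits called 4286 to 5336, with 2068 to 3034 higher. Without replicate 1 of the stem-labelled clones 2 members were higher and 34 list genes called. That fit called 4301 of all genes, 2068 of them higher, against 5577 and 3014 with all libraries. Other causes of these losses were not tested. Levels near 1 RPKM, as for Rb1 and E2f3, rest on the fewest reads.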
